A study of Homo sapiens with 3 samples.

Results

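The 52 genes described here encode the subunits of Mediator with its kinase module (31 genes), the promoter-recognition complex TFIID (TBP and 13 TBP-associated factors, or TAFs), and the general transcription factors TFIIA, TFIIB, TFIIE and TFIIF (7 genes). They were chosen by gene symbol and not by any measured value, although earlier results of these data were known at the time. All 52 had a row among the 17595 endogenous genes of the count table. Messenger RNA was profiled from its 5′ ends in 3 sequencing libraries that form 1 group, HEK293 cells with no treatment named, a human embryonic kidney line transformed with adenovirus DNA. In each preparation 1000 cells were lysed with spiked control RNA, and a part of the reverse transcription equal to 100 cells was amplified over 18 PCR cycles. The libraries carry the indices 20, 21 and 23, and no label ties an index to a replicate number or says whether the cells came from separate cultures. Differences between libraries may therefore be technical.

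RNA polymerase II cannot find a promoter by itself. TFIID, held together by TBP and pairs of TAFs that fold against each other like histones, binds the core promoter; TFIIA and TFIIB steady TBP there, TFIIF brings the polymerase and TFIIE recruits TFIIH, which opens the DNA. Mediator passes signals from DNA-bound activators to this assembly: its tail meets activators, its head and middle contact the polymerase, MED14 spans the parts, and the CDK8 kinase module binds reversibly and keeps the polymerase out.

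Endogenous counts were 1475769, 1330877 and 1545594 in libraries 20, 21 and 23, so that 1 count equalled 0.678, 0.751 and 0.647 counts per 1000000 endogenous counts (CPM). Spikes took between 3.49% and 3.85% of all counts, and 14736 to 15231 endogenous genes had a count in a library. The 5 marker genes of HEK293 cells (NEFL, NEFM, VIM, CITED1 and IGF2BP1) were present in every library, with a summed level of 530 to 575 CPM. Of 16 markers of blood, endothelium, fibroblasts, hepatocytes and differentiated kidney epithelium, 5 had a row, and their summed level was 7.45 to 9.06 CPM. PTPRC, CD3E, PECAM1, CDH5, COL1A2, DCN, ALB, TTR, SLC12A1, AQP2 and UMOD had no row.

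Upstream sequence is shown first for TBP, the subunit against which the others were measured. It is also shown for the partners GTF2A1 with GTF2A2 and TAF4 with TAF12, whose levels differed by more than 10-fold. TAF6 with TAF9 and CDK8 with CCNC also differed by more than 10-fold and are not shown. The RefSeq promoter table (GRCh38) matched 41 of the 52 genes with 51 transcription starts. Each line below holds the part of the 250 bases before a start that overlaps no annotated exon, 5′ to 3′ along the gene. GTF2A1 and GTF2A2 have 2 starts each in the table, and the start with the longer such part is shown. Capitals mark the GC box GGGCGG bound by SP1, or its reverse complement CCGCCC, and in TAF12 the ETS-family motif CCGGAAG.
TBP (chr6:170554119-170554301, plus strand): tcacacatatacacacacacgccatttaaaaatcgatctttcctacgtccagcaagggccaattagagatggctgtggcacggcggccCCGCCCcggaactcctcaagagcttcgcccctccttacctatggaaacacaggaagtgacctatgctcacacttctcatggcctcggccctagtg
GTF2A1 (chr14:81220960-81221143, minus strand): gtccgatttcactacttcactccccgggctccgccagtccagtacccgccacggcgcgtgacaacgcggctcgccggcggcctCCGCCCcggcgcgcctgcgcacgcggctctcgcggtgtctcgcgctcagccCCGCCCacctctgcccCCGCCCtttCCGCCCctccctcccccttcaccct
GTF2A2 (chr15:59657542-59657765, minus strand): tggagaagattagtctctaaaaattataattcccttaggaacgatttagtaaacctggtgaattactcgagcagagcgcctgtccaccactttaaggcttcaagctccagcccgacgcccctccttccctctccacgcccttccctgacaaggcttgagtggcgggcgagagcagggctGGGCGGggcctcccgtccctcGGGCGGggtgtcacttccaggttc
TAF4 (chr20:62065882-62066131, minus strand): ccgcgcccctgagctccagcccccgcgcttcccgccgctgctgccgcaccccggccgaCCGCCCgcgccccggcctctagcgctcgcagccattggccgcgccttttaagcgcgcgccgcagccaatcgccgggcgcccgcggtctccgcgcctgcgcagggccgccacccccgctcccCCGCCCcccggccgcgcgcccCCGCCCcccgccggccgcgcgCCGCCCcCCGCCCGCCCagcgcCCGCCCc
TAF12 (chr1:28643086-28643227, minus strand): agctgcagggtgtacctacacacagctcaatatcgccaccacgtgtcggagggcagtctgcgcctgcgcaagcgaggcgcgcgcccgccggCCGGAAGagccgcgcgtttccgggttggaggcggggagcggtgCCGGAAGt
The TAF4 stretch held 7 GC boxes, GTF2A1 held 4, GTF2A2 held 2 and TBP held 1, while the TAF12 stretch held 2 ETS motifs and no GC box. At the other start of GTF2A1 and of GTF2A2, the exon-free parts (113 and 14 bases) held none of the motifs searched. The GC content of the 250 bases was 86.0% for TAF4, the highest among the 51 windows, whose median was 58.0% with a lowest value of 43.6%. Windows of the genes tested below had a median of 64.8%.

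In the whole 250-base windows, searched on both strands, CCGGAAG occurred in 29.4% of the 51 windows, against 8.52% of all 35116 windows in the table and 14.8% of the 12302 windows of genes tested below. It was found for 13 genes: GTF2A1, GTF2A2, GTF2F1, MED7, MED15, MED17, MED18, MED31, TAF1, TAF3, TAF9, TAF12 and TAF13. These 13 lie at both ends of the range of levels, from TAF9, the highest of the 52, to TAF1, the lowest. GGGCGG occurred in 52.9% of the windows, against 42.6% of all windows and 65.1% of windows of genes tested. The TATA box TATAAA, the element that TBP itself contacts, occurred in 5.88% of the windows, in GTF2B, MED7 and MED16, against 10.7% of all windows and 5.40% of windows of genes tested. The YY1 motif AAGATGGCG occurred in 5.88% (GTF2E1, MED18 and MED25), against 0.652% and 1.15%, and the NRF1 motif GCGCATGCG in 1.96% (MED18), against 1.64% and 2.89%. Matches were counted also where they overlap, as a pair of GC boxes does in TAF4. A match describes the letters of a window only.

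Each of the 52 genes had a count in all 3 libraries, as did 72.6% of the endogenous genes with a row. At a mean of at least 10 CPM stood 49 of the 52, against 44.6% of those genes, and the other 3 were MED12, MED26 and TAF1. All 52 also had at least 10 counts over the 3 libraries, the minimum for a gene to be tested, which 11424 genes met. Of these 11424 genes, 7850 stood at a mean of at least 10 CPM. Together the 52 genes took 0.301%, 0.296% and 0.293% of endogenous counts in libraries 20, 21 and 23 (0.297% ± 0.00383, SD, n = 3). Their median level was 28.1, 27.0 and 31.4 CPM (28.9 ± 2.26 CPM, SD, n = 3), beside 19.5 ± 1.06 CPM for the genes tested and 6.89 ± 0.201 CPM for all genes with a row. In RNA from bulk cells, a lower level in every cell and a gene used by fewer cells cannot be told apart.

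Counts were concentrated on a few subunits. TAF9 alone held 16.1% ± 0.600 (SD, n = 3) of the counts of the 52 genes, and TAF9, GTF2A2, CCNC and TAF12 together 34.6% ± 1.32. The lowest 26 genes held 15.8% ± 1.92. From TAF1 at 5.47 CPM to TAF9 at 478 CPM the means spanned 87.4-fold. When the genes were ordered by mean CPM, the libraries' ranges overlapped for 48 of the 51 neighbouring pairs, and only TAF9, GTF2A2 and TAF12 stood clear of the gene below them.

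**Figure D1:**
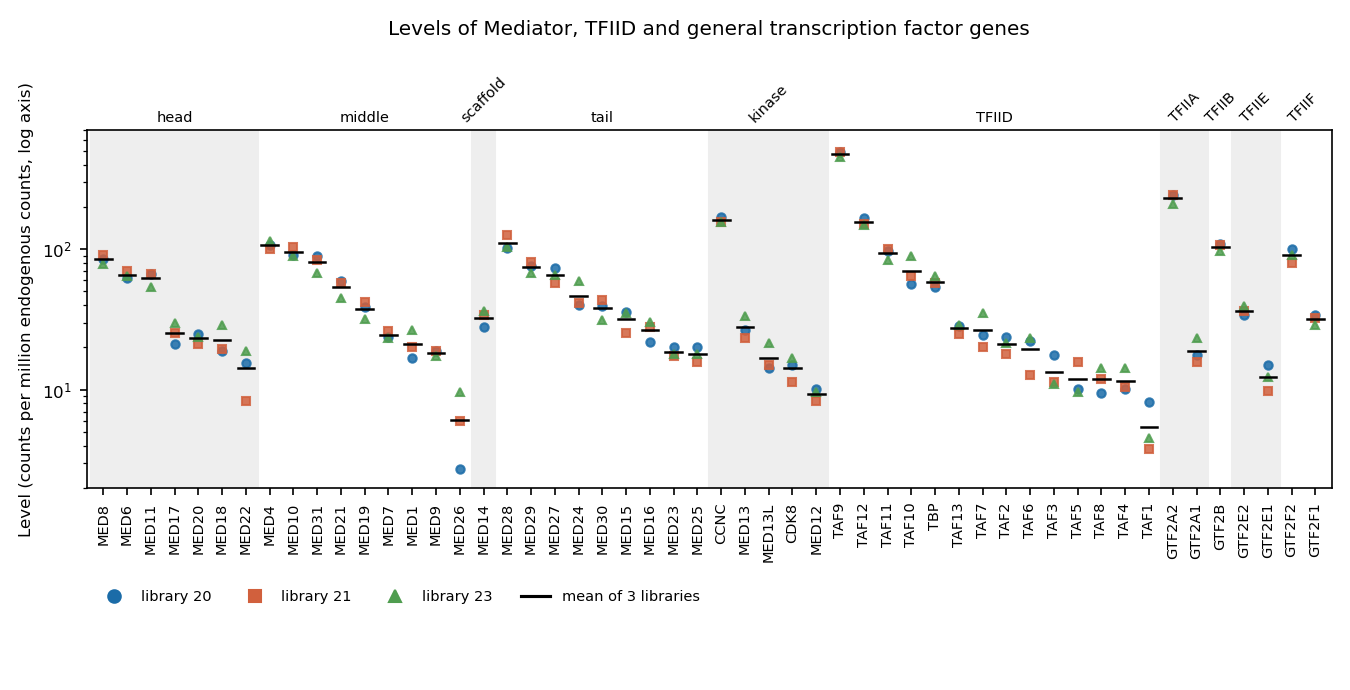
Levels of the 52 genes by role (horizontal axis) in CPM on a log axis; each symbol is 1 library and each black line the mean of 3 libraries. CCNC sits far above the other 4 genes of the kinase module, TAF9 is the highest of TFIID and GTF2A2 is far above GTF2A1. MED26, TAF1 and MED22 have the largest coefficients of variation between libraries (57.0%, 42.7% and 37.9%). Counting error alone would give them 33.3%, 35.4% and 21.8%.

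TBP, which is shared by the initiation complexes of all 3 nuclear RNA polymerases, was taken as the yardstick. It stood at 54.2, 57.9 and 64.1 CPM in libraries 20, 21 and 23 (58.7 ± 4.98 CPM, SD, n = 3), from 80, 77 and 99 counts. The log2 ratio of each gene's count to that of TBP, with 0.5 added to both counts, was tested with limma over all genes tested, at a Benjamini-Hochberg adjusted p of 0.05. All ratios share the TBP counts, so they are not independent of each other. Of the other 51 genes, 12 were higher than TBP, 32 were lower and 7 were called neither. Over the whole table, 18.9% of 11423 genes were higher and 71.7% lower, and the median log2 ratio was -1.58, beside -1.08 for the 51. Where a ratio over 2-fold in every library was asked for as well, a rule chosen after seeing the data, 4 of the 51 were higher and 23 lower, against 11.8% and 56.8% of the 11423 genes. Per 1000 coding bases TBP stood at 57.7 CPM. Counts came from the 5′ ends of messenger RNA, so this scale is a description and not a correction for length. All 12 genes called higher have a shorter coding sequence than TBP, so that dividing by length can only raise them against it. Of the 32 called lower, 10 have a shorter one, and among these MED30 and TAF13 were above TBP per 1000 coding bases.

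**Figure D2:**
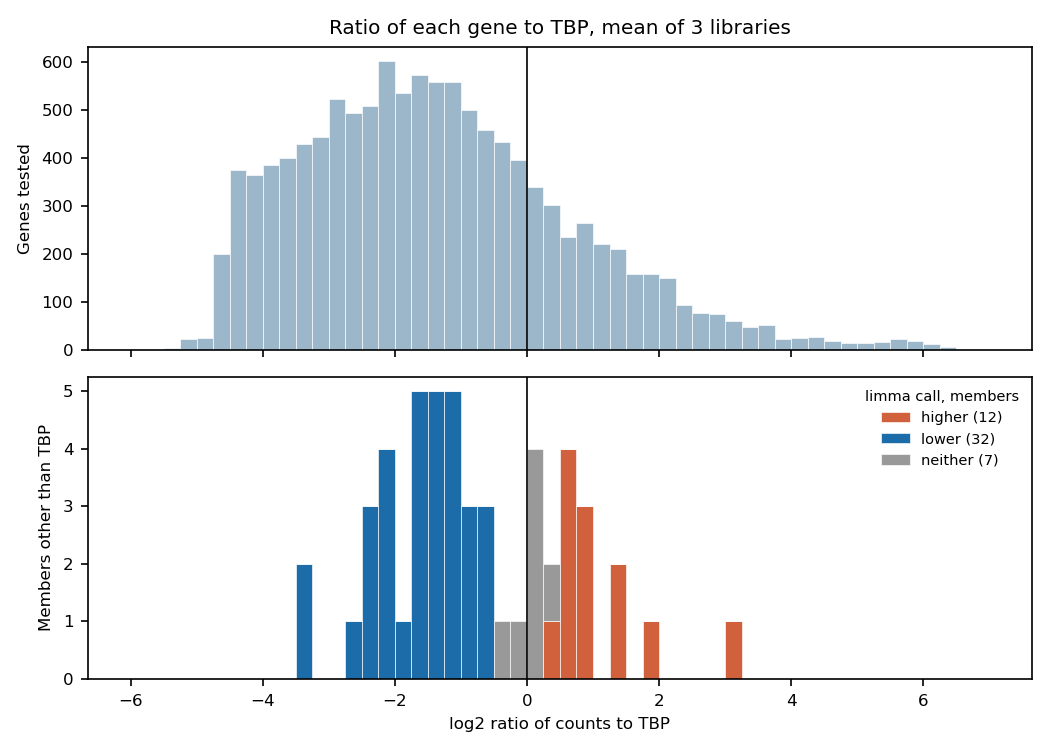
Distribution of the log2 ratio of counts to TBP (mean of 3 libraries) for the genes tested (upper panel) and for the 51 genes other than TBP (lower panel), coloured by the limma call at an adjusted p of 0.05; bars count genes. The 51 genes run from -3.41 for TAF1 to 3.02 for TAF9.

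TFIID carried the extremes of the whole set. Its 14 genes took 0.100% ± 0.00129 (SD, n = 3) of endogenous counts, and its 13 TAFs had a median of 21.7 ± 3.17 CPM. Of the 13 TAFs, TAF9, TAF11 and TAF12 were higher than TBP, 9 were lower and TAF10 was called neither. TAF9, a histone-fold subunit that also belongs to the SAGA coactivator, stood at 491, 491 and 453 CPM (478 ± 22.0 CPM, SD, n = 3). Its log2 ratio to TBP was 3.02 (SE 0.14, limma adjusted p = 1.5e-05), and no library stood far from the others. In the GENCODE annotation (release 29) TAF9 shares exons on the same strand with AK6, an adenylate kinase gene that had no row in the table, and the counts could hold tags of both. The annotation also names the pseudogenes TAF9P1, TAF9P2 and TAF9P3, of which TAF9P3 had a row. The part of AK6 or of these pseudogenes in the TAF9 level was not tested. This limit holds for every share, span and ratio given here that includes TAF9.

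TAF1, the largest TAF and the scaffold that contacts the promoter downstream of the start, was the lowest of the 52 genes. It stood at 8.13, 3.76 and 4.53 CPM (5.47 ± 2.33 CPM, SD, n = 3) from 12, 5 and 7 counts, with library 20 above the others. Its log2 ratio to TBP was -3.41 (SE 0.25, limma adjusted p = 5.5e-05). TAF7, which binds TAF1 and restrains its enzymatic activity, stood at 24.4, 20.3 and 34.9 CPM (26.5 ± 7.56 CPM, SD, n = 3). TAF7 thus exceeded TAF1 in each library, with a log2 ratio of TAF1 to TAF7 of -2.24 ± 0.66 (SD, n = 3).

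The histone-fold partners inside TFIID were unequal in counts in each pair examined. TAF6 at 22.4, 12.8 and 23.3 CPM was 24.9-fold below its partner TAF9, with a log2 ratio of -4.64 ± 0.51 (SD, n = 3). TAF4, a large subunit that activators bind, was at 10.2, 10.5 and 14.2 CPM, against 166, 151 and 148 CPM for TAF12. The groups of values did not come near each other, and the log2 ratio of TAF4 to TAF12 was -3.71 ± 0.33 (SD, n = 3), or 13.1-fold. In the sequences above, the upstream stretch of TAF4 held only GC boxes among the motifs searched and that of TAF12 only ETS motifs. A link between these motifs and the levels was not tested.

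TAF11, at 96.9, 101 and 84.1 CPM, was 3.39-fold above TAF13, at 28.5, 24.8 and 29.1 CPM, although TAF13 has the shorter coding sequence. TAF10, a partner of both TAF8 and TAF3 and a subunit of SAGA as well, stood at 56.9, 63.9 and 89.3 CPM, highest in library 23. TAF8, at 9.49, 12.0 and 14.2 CPM, was 5.71-fold below TAF10. TAF3, which reads the methylated histone H3 tail at active promoters, was at 17.6, 11.3 and 11.0 CPM and 5.18-fold below TAF10. TAF10 had 84, 85 and 138 counts, and the gene is overlapped by ILK on the other strand. Its difference between libraries is given below.

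Of the other TAFs, TAF2, which contacts the initiator element, was at 21.0 ± 2.85 CPM and TAF5, the WD-repeat subunit at the centre of TFIID, at 11.9 ± 3.38 CPM (SD, n = 3). TAF5 was at 10.2, 15.8 and 9.71 CPM, with library 21 the highest. Both genes were lower than TBP, with log2 ratios of -1.47 for TAF2 (limma adjusted p = 0.00020) and -2.30 for TAF5 (limma adjusted p = 8.5e-05).

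The general factors TFIIA, TFIIB, TFIIE and TFIIF had a median of 36.5 ± 2.82 CPM (SD, n = 3) and took 0.0525% ± 0.00246 of endogenous counts. Against TBP, 3 were higher (GTF2A2, GTF2B and GTF2F2) and 4 were lower. GTF2A2, the small subunit of TFIIA, stood at 243, 241 and 211 CPM (232 ± 17.9 CPM, SD, n = 3), the second highest of the 52 genes and, at 708 CPM per 1000 coding bases, the highest on that scale. GTF2A1, whose product is cleaved into the large TFIIA subunits, stood at 17.6, 15.8 and 23.3 CPM. The log2 ratio of GTF2A1 to GTF2A2 was -3.61 ± 0.39 (SD, n = 3), a 12.2-fold difference that was present in each library, with GTF2A1 holding 6.77% (exact binomial 95% interval 4.47% to 9.76%), 6.14% (3.84% to 9.23%) and 9.94% (7.06% to 13.5%) of the pair's counts. These intervals cover counting error only.

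GTF2B, the gene of TFIIB, the bridge between TBP and the polymerase, stood at 108, 107 and 96.4 CPM. With a log2 ratio to TBP of 0.82 (SE 0.14, limma adjusted p = 0.0021), it was 1.76-fold higher in counts. In TFIIE, which loads and regulates TFIIH, GTF2E1 was at 14.9, 9.77 and 12.3 CPM and GTF2E2 at 33.9, 36.1 and 39.5 CPM, a 2.94-fold difference with no overlap between libraries. In TFIIF, which binds the polymerase and stabilises it at the promoter, GTF2F1 was at 33.9, 32.3 and 29.1 CPM and GTF2F2 at 101, 79.6 and 91.2 CPM. GTF2F2 exceeded GTF2F1 by 2.82-fold, again in each library.

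TFIIH, the factor with the helicases and the kinase of the polymerase tail, was read as a comparison list. Of its 10 genes 9 had a row, and GTF2H4 had none. The median over the 10 was 44.2 ± 2.30 CPM (SD, n = 3). The smallest subunit, GTF2H5, was the highest, at 285 ± 10.5 CPM. Among the 9, GTF2H5, CCNH and MNAT1 were higher than TBP and 6 were lower, including GTF2H2 at 7.97 ± 1.78 CPM.

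Mediator's 31 genes had a median of 29.1 ± 2.26 CPM (SD, n = 3) and took 0.144% ± 0.000812 of endogenous counts. Against TBP, 6 were higher, 19 lower and 6 neither. By module the median was 26.8 ± 2.58 CPM in the head, 37.5 ± 5.28 CPM in the middle, 38.5 ± 3.26 CPM in the tail and 17.1 ± 3.69 CPM in the kinase module. MED14, the scaffold, stood at 32.6 ± 4.35 CPM, and its log2 ratio to TBP was -0.85 (limma adjusted p = 0.0011).

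In the head, MED8 at 84.6 ± 5.98 CPM (SD, n = 3) was 1.44-fold higher than TBP (log2 ratio 0.53, SE 0.14, limma adjusted p = 0.014), but without library 21 the adjusted p was 0.079. MED6 at 65.6 ± 3.86 CPM and MED11 at 62.6 ± 7.67 CPM were called neither, and MED17, on which the head is built, was lower at 25.4 ± 4.38 CPM, as were MED18, MED20 and MED22. MED18 and MED20, which bind each other in a movable part of the head, were the only complex partners of the 14 examined without a 2-fold difference. MED18 was at 19.0, 19.5 and 29.1 CPM and MED20 at 25.1, 21.0 and 23.9 CPM, and their log2 ratio was -0.07 ± 0.34 (SD, n = 3). MED11, at 67.1, 66.9 and 53.7 CPM, was 4.54-fold above its partner MED22, at 15.6, 8.27 and 18.8 CPM. MED22 starts 83 bases from the divergent ribosomal protein gene RPL7A, which stood at 2182 CPM.

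In the middle, MED4 was at 107, 101 and 114 CPM, the sixth highest of the 52 genes. MED4 (107 ± 6.59 CPM, SD, n = 3), MED10 (95.3 ± 7.97 CPM) and MED31 (80.5 ± 11.8 CPM) were higher than TBP. The call of MED31 (limma adjusted p = 0.048) was lost without library 20, without library 21 and with a minimum of 1 pooled count, and its adjusted p reached 0.16 over the alternatives. MED21, at 59.0, 57.9 and 45.3 CPM, was called neither, and its partner in the hinge of the middle module, MED7, at 23.7, 26.3 and 23.3 CPM, was 2.18-fold below it. MED1, the subunit that nuclear receptors bind, was at 21.3 ± 4.87 CPM. MED9 and MED19, at 18.4 ± 0.819 and 37.5 ± 5.28 CPM, were likewise lower than TBP. MED26, which joins Mediator to elongation factors, was the lowest Mediator gene at 2.71, 6.01 and 9.71 CPM from 4, 8 and 15 counts, with library 20 the lowest.

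In the tail, MED28 at 102, 126 and 104 CPM was the highest, and its log2 ratio to TBP was 0.91 (SE 0.14, limma adjusted p = 0.0013). MED27 (65.7 ± 8.38 CPM, SD, n = 3), MED29 (74.7 ± 6.31 CPM) and MED24 (46.7 ± 10.5 CPM) were called neither. MED24 stood at 40.0, 41.3 and 58.9 CPM, with library 23 the highest. MED15, MED23 and MED25, which activators bind, and MED16 were lower than TBP, at 32.1 ± 5.72, 18.6 ± 1.57, 18.1 ± 2.27 and 26.6 ± 4.48 CPM. MED30, at 38.0 ± 6.37 CPM, was lower than TBP in counts and above it per 1000 coding bases.

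In the kinase module the cyclin stood apart from the other genes. CCNC, the cyclin that partners CDK8, stood at 169, 156 and 157 CPM (161 ± 7.57 CPM, SD, n = 3), the third highest of the 52 genes. The kinase itself, CDK8, stood at 14.9, 11.3 and 16.8 CPM, and the log2 ratio of CDK8 to CCNC was -3.47 ± 0.27, or 11.1-fold. MED12, which activates CDK8, was at 10.2, 8.27 and 9.71 CPM, and MED13, which ties the module to Mediator, at 26.4, 23.3 and 33.6 CPM. MED12 and MED13 have coding sequences of nearly equal length, 6531 and 6522 bases, and MED13 was 2.87-fold higher on either scale. CCNC was the only gene of the 5 above TBP, and the other 4 were lower.

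Over the 14 pairs of complex partners, 13 differed by more than 2-fold in the mean ratio. In each of the 13, the same gene was higher in all 3 libraries. All 3 exact binomial intervals of the share were off 50% for each of them. How many other pairs of genes would do so was not computed, and the 52 genes span 87.4-fold in mean level. TAF10 enters the pairs of both TAF8 and TAF3. The shorter gene of a pair was the higher in 12 of the 14, among them MED13 over MED12 at nearly equal lengths. For these 12, dividing by length cannot narrow the difference, and it remains a description only. In the other two the log2 ratio per 1000 coding bases was 0.99 for TAF11 over TAF13 and -0.05 for MED18 over MED20. Paralogs were read in the same way. Of 11 paralog pairs 8 had both genes in the table, and 2 of the 8 had all 3 intervals off 50%. TAF1L, TAF7L, TBPL2 and GTF2A1L, relatives best known from the germ line, had no row.

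CDK8 exceeded its alternative CDK19, at 4.07, 3.01 and 2.59 CPM, by 4.13-fold, with a log2 ratio of 2.04 ± 0.44 (SD, n = 3). TAF9 exceeded TAF9B, at 98.9, 113 and 87.3 CPM, by 4.80-fold, with a log2 ratio of 2.26 ± 0.13. Both directions held in each library. MED13 was above MED13L, at 14.2, 15.0 and 21.4 CPM, by 1.64-fold, but only 1 of the 3 intervals was off 50%. TAF6 was above TAF6L, at 10.8, 5.26 and 4.53 CPM, by 2.85-fold. The log2 ratio was 1.51 ± 0.68 (SD, n = 3), and 2 of 3 intervals were off 50%.

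For TBP, TAF4 and TAF5 the higher gene of the paralog pair changed between libraries. TBPL1, the TBP-like factor, was at 58.3, 49.6 and 56.3 CPM, and the log2 ratio of TBP to TBPL1 was 0.10 ± 0.18 (SD, n = 3). TAF4B, at 8.81, 11.3 and 12.3 CPM, was as near to TAF4, with a log2 ratio of TAF4 to TAF4B of 0.10 ± 0.17. TAF5L, a SAGA subunit, was at 14.9, 6.76 and 14.2 CPM. The log2 ratio of TAF5 to TAF5L changed sides between libraries, at 0.03 ± 0.99 (SD, n = 3). MED12L, at 4.74, 6.76 and 7.76 CPM, was below MED12 in each library, but no interval was off 50%.

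**Figure D3:**
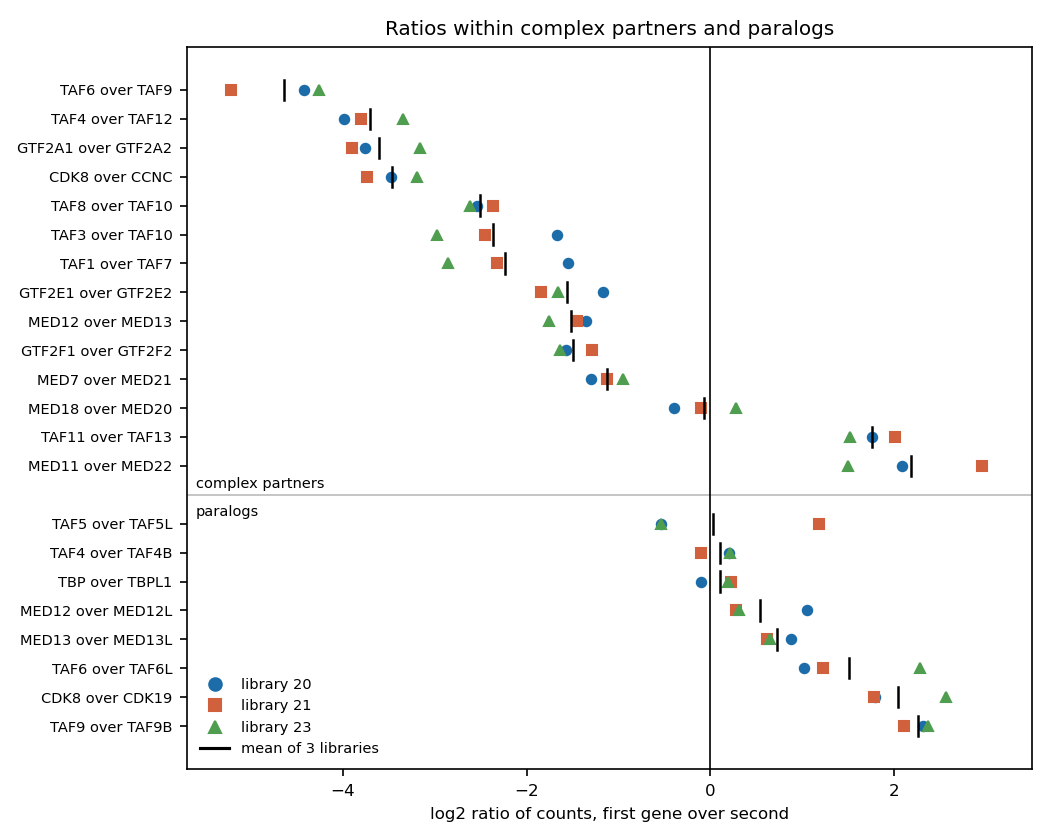
log2 ratio of counts of the first over the second gene (horizontal axis) for the 14 pairs of complex partners (above the line) and the 8 paralog pairs with both genes in the table (below); each symbol is 1 library and each black line the mean. Partner ratios run from -4.64 for TAF6 over TAF9 to 2.18 for MED11 over MED22, and MED18 over MED20 is the only partner pair that straddles 0.

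Across the 52 genes, the level was lower for genes with longer coding sequences. The coefficient between log2 CPM and coding length was -0.58 (Pearson) and -0.57 (Spearman, n = 52), and across 10082 protein-coding genes tested it was -0.36 and -0.34. With annotated transcript length in its place, the coefficients were -0.48 and -0.56 for the 52 genes and -0.35 and -0.31 for the genes tested. These coefficients are across genes measured in the same 3 libraries, and genes are not replicates. The 26 genes with the shorter coding sequences (327 to 933 bases) had a median of 68.5 ± 1.92 CPM (SD over libraries, n = 3), and 17 of them were above 50 CPM. The 26 longer genes (948 to 6666 bases) had a median of 19.7 ± 2.94 CPM, and GTF2B and TBP were the 2 above 50 CPM. The lowest of the shorter genes were MED22, MED9 and MED18, at 14.2, 18.4 and 22.5 CPM. All 10 genes with at least 3000 coding bases lay between 5.47 and 46.7 CPM, TAF1 being the lowest and MED24 the highest. The protocol counts fragments from the 5′ ends of cDNA, and how far cDNA synthesis from the poly(A) tail reached the start of long transcripts was not tested.

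**Figure D4:**
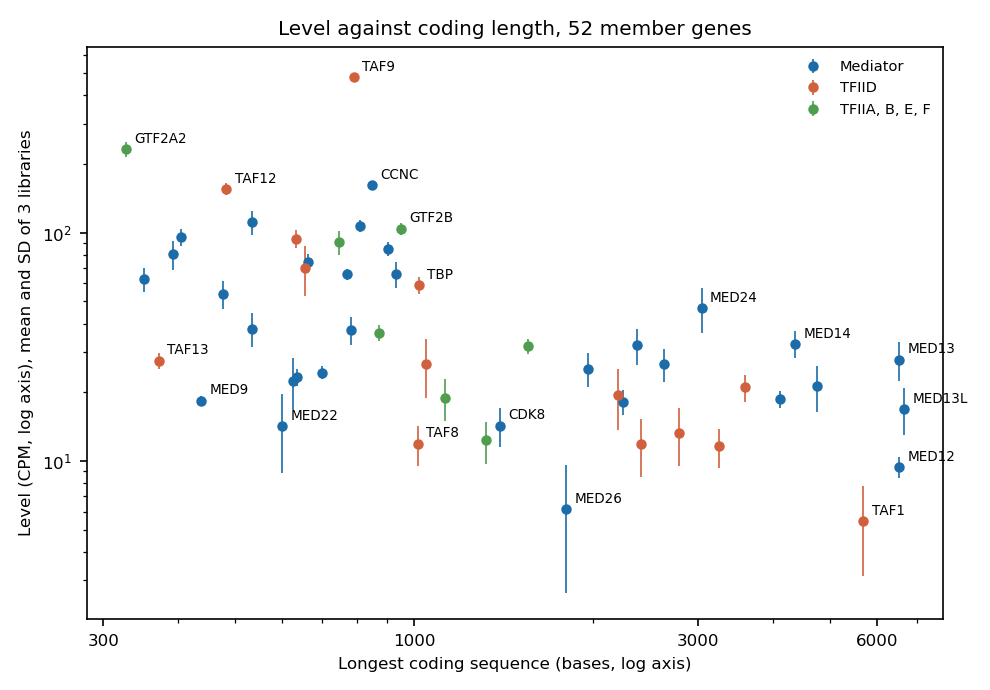
Level of the 52 genes (mean and SD of 3 libraries, CPM, log axis) against the longest annotated coding sequence (bases, log axis), coloured by complex. TAF9, GTF2A2, CCNC and TAF12 lie at the upper left, and the genes of at least 3000 bases all lie below 50 CPM.

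Differences between libraries were tested for each gene and pair of libraries with a 2-sided exact binomial test, adjusted over all genes tested and the 3 pairs. None of the 52 genes was called, against 0.560% of the 11424 genes (64 genes). At an unadjusted p of 0.05, 7 of the 52 (13.5%) and 15.9% of all genes tested passed in at least 1 pair, and with a chi-square test over the 3 libraries 3 of the 52 (5.77%) and 9.26% of all genes tested did. Adjusted, the chi-square test called 0 of the 52 and 0.727% of the genes tested (83 genes). The lowest exact p belonged to TAF10, between libraries 20 and 23 (p = 0.0012, adjusted p = 0.18), followed by MED22 (p = 0.017, adjusted p = 0.54) and TAF7 (p = 0.019, adjusted p = 0.57). The median coefficient of variation was 13.5% for the 52 genes and 15.7% for all genes tested, which had a lower median level. The median ratio of the variance between libraries to that of counting alone was 1.13 for the 52 genes and 0.831 for all genes tested. With 3 libraries, counting error alone would put this median below 1, so 0.831 does not show less spread than counting error. Library 20 held the highest value for 20 of the genes, library 21 for 11 and library 23 for 21.

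Some of the genes have close or overlapping neighbours in the annotation. A protein-coding gene starts within 1000 bases on the other strand for 15 of the 52 (28.8%), against 19.0% of 10082 protein-coding genes tested. TBP lies 961 bases from PSMB1, at 791 CPM. For 24 of the 52 an exon is overlapped by a gene on the other strand. For 4 (TAF9, MED7, MED17 and MED26) an exon is shared on the same strand. The shares of such overlaps over all genes were not computed. Pseudogenes are named for 9 of the 52, among them TAF9, MED15 and MED28, again with no share over all genes computed. The sources used here do not say whether counting used strand. The part of these neighbours and pseudogenes in the levels was not tested.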

How the data were processed

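The authors deposited raw counts per gene for 3 HEK293 libraries, with no normalization. The submitters' processing notes name STAR 2.4.0a, cutadapt 1.2.1 and the build hg19 (GRCh37). How tags were counted (the tool, annotation, use of strand and treatment of molecular identifiers) is not given in the sources used here, and a count may be a read or a molecule. The table held 17675 rows, 80 of them spikes, and total counts were 1532672, 1384172 and 1601555. Column names carry an index and no replicate number, so the 3 columns were used as unnumbered replicates.

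CPM were taken over endogenous counts. Genes with at least 10 pooled counts were tested. Ratios to TBP (pseudocount 0.5) were tested with limma 3.58.1 in R 4.3.3, and libraries were compared with exact binomial tests (scipy 1.17.1), both with Benjamini-Hochberg adjustment over all genes tested at 0.05. The limma p-values measure the spread between these libraries, which may be technical, and the exact binomial and chi-square p-values cover counting error only, which PCR copies can exceed. edgeR 4.0.16, DESeq2 1.42.0 (Wald test), other filters, scalings and left-out libraries were alternatives. The procedures were checked on simulated counts. Coding lengths are the longest in GENCODE 29 (GRCh38), since the protein table named in the plan was not used here, and promoter sequences come from RefSeq (GRCh38), while the counts rest on GRCh37. Coordinates are not converted between builds. The genes, lists, 25 pairs and 5 motifs were chosen with earlier results of these data known. Values in each library are given for the 6 highest and 6 lowest genes, the kinase module, the general factors, genes of pairs, and the 3 genes with the lowest p between libraries.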

Additional observations from a re-analysis of the deposited data

How the results depend on the processing

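Of the 51 genes compared with TBP, 43 kept their call under 9 alternatives of tool, filter, pseudocount, variance trend (chosen after seeing the data) and left-out library. TAF1, MED26 and MED12 kept it under 8 and were not tested at a minimum of 50 counts. The exceptions were MED8 and MED31 (lost, with adjusted p up to 0.079 and 0.16) and MED24, MED29 and TAF10 (gained). Genes higher than TBP numbered 12, with 14 by edgeR, 13 by DESeq2, 13 at a minimum of 50 counts and 10 to 13 without 1 library; genes lower numbered 32, with 33, 32, 30 and 32 to 33. Chosen after seeing the data, a ratio over 2-fold in every library left 4 higher (11.8% of the table) and 23 lower (56.8%). The share of endogenous counts was 0.286% with spikes in the totals, 0.249% without TAF9 (chosen after seeing the data) and 0.295% to 0.298% without 1 library. The median level was 27.6 to 29.8 CPM without 1 library, and 48 to 49 genes reached 10 CPM. Spearman's coefficient with coding length was -0.86 for CPM per 1000 coding bases, whose divisor is the length itself, and -0.59 to -0.56 without 1 library. No gene of the 52 differed between libraries under the alternatives tried, while 8 to 114 genes of the table did. Of the 22 log2 ratios of pairs, 20 kept their sign with a pseudocount of 1 and without any 1 library. Without 1 library the log2 ratio of MED18 over MED20 ran from -0.25 to 0.09 and that of TAF5 over TAF5L from -0.54 to 0.32. No paired analysis was possible because there is 1 group. Genes such as TAF1, MED26 and MED12 rest on 4 to 15 counts per library, which limits their precision.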
